A study of Mus musculus with 6 samples.

Results

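The cytochrome P450 genes of the mouse were followed in fully grown oocytes at the germinal vesicle (GV) stage, with and without Zar1. Members were all genes whose symbol begins with Cyp and a digit, with Cyp51 left out, which gave 130 of the 53700 genes in the deposited count tables. Of these, 30 carry a pseudogene symbol, and 1, Cyp4x1os, is the opposite-strand transcript of Cyp4x1. A total of 38 members had 60 or more reads summed over the 6 libraries and are described by name. Another 52 had between 1 and 59 reads, and 40 had none in any library. The study set 3 libraries of Zar1 knockout oocytes against 3 of wild-type oocytes, each made from polyA RNA of 10 oocytes on a C57BL/6N strain background. Zar1 encodes an RNA-binding protein of the oocyte. The labels number the replicates as biological, but do not say whether each pool of oocytes came from its own animal, so the p-values below measure the spread between these libraries. Neither the age of the animals nor the part of Zar1 that was deleted is stated in the sources used here.

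P450 enzymes hold a heme in the active site and use it to insert oxygen into lipids, steroids, vitamins and foreign compounds. Most sit in the endoplasmic reticulum and take electrons from P450 oxidoreductase, and a few sit in mitochondria and take them from ferredoxin. In the ovary the family is best known for steroid hormone synthesis, which takes place mainly in the theca and granulosa cells around the oocyte.

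Total gene counts were 35066851, 37946223 and 37253021 in Zar1 knockout libraries, against 39148833, 35358795 and 32126555 in wild-type libraries. Zar1 itself had 69, 96 and 226 counts in Zar1 knockout libraries and 15245, 13612 and 12810 counts in wild-type libraries. The knockout libraries were all far below the wild-type ones, as their labels state. Oocyte marker genes summed to between 22097 and 23975 CPM, the usual scaling of counts to library size, in knockout oocytes and between 19523 and 21009 CPM in wild-type oocytes, with 8 of the 12 called higher and 1 lower. Over all genes tested, 14.9% were called higher and 18.5% lower. The 14 granulosa and cumulus markers summed to between 85.8 and 92.1 CPM in knockout and between 63.2 and 64.2 CPM in wild-type oocytes, with 2 of 9 tested called higher and 1 lower. Nr5a2 made up most of that sum, at 77.9 ± 5.50 CPM in knockout and 51.8 ± 3.17 CPM in wild-type oocytes (SD, n = 3 each). The other called markers of that list were Has2, with 117, 232 and 155 counts in knockout libraries and 86, 58 and 47 counts in wild-type libraries, and Kitl, with 17, 21 and 49 counts in knockout libraries and 176, 132 and 128 counts in wild-type libraries. Has2 was thus higher and Kitl lower in every knockout library. Amh had 1, 4 and 1 counts, Foxl2 5, 2 and 7 counts and Fshr 0, 47 and 0 counts in knockout libraries, against 3, 2 and 0 counts of Amh, 6, 3 and 0 counts of Foxl2 and 8, 1 and 4 counts of Fshr in wild-type libraries. The 13 theca and stroma markers summed to between 1.72 and 3.80 CPM in knockout and between 2.84 and 4.60 CPM in wild-type oocytes, with Insl3 at 0 and none of 6 tested called higher. Pdgfra was called lower, with 4, 1 and 0 counts in knockout libraries and 28, 16 and 27 counts in wild-type libraries. The 12 endothelial and blood markers summed to between 40.3 and 46.5 CPM in knockout and between 34.7 and 38.1 CPM in wild-type oocytes, with all 4 hemoglobin genes at 0. Of 4 tested, Pecam1 was called higher, at 30.5 ± 2.15 CPM in knockout and 24.2 ± 0.611 CPM in wild-type oocytes, and it made up most of the sum with Tek, at 8.68 ± 1.60 CPM in knockout and 7.56 ± 0.262 CPM in wild-type oocytes (SD, n = 3 each). The part of these shifts in the P450 results was not tested.

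The summed share of P450 reads was lower in Zar1 knockout oocytes, a drop that rested on Cyp4f39 and Cyp2c53-ps, which both fell. Values in CPM are shares of a library's counts and do not give amounts per oocyte. Summed over all members and scaled to the plain total of gene counts, P450 genes had 345, 334 and 344 CPM in knockout libraries, against 440, 414 and 435 CPM in wild-type libraries. Every knockout library was below every wild-type library, with means of 340.9 ± 6.03 CPM in knockout and 429 ± 13.7 CPM in wild-type oocytes (SD, n = 3 each). Without Cyp4f39 and Cyp2c53-ps, the remaining sum was 293, 294 and 291 CPM in knockout libraries and 260, 257 and 263 CPM in wild-type libraries. Both genes left out fell, while Cyp4a14, which rose, was kept, with 8899 counts in knockout and 6028 in wild-type libraries. This choice by itself moves the sum towards higher knockout values. The reversed order therefore cannot show a general rise of the other members. In bulk libraries such as these, fewer cells that carry a transcript and less of it per cell cannot be told apart. The number of P450 genes with 10 or more reads was 36, 39 and 41 in knockout libraries and 33, 32 and 31 in wild-type libraries, again without overlap. This cut was not scaled to library size, and the same count was not made over all genes.

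The make-up of the P450 pool also differed between the genotypes. Cyp4f39 held 13.9 ± 1.94% of all P450 counts in knockout oocytes and 31.3 ± 1.23% in wild-type oocytes. Cyp4a14 held 23.6 ± 3.65% in knockout and 13.2 ± 1.27% in wild-type oocytes. Cyp2c53-ps held 0.144 ± 0.00966% in knockout and 8.06 ± 0.790% in wild-type oocytes, and Cyp19a1 held 12.4 ± 2.43% in knockout and 11.3 ± 1.29% in wild-type oocytes. Of the 4 genes, Cyp4a14 held the largest share in knockout oocytes and Cyp4f39 in wild-type oocytes.

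Of the 38 named members, 36 passed the filter on low counts and were tested with edgeR's quasi-likelihood test, with Benjamini-Hochberg adjustment over all 16473 genes tested. At an adjusted p of 0.05, 12 were called higher and 9 lower in knockout oocytes and 15 were not called. Among all genes tested, 33.4% were called, with 14.9% higher and 18.5% lower. The P450 shares were 58.3% called, 33.3% higher and 25.0% lower. The median log2 fold change of the 36 members was 0.52, against 0.0075 for all genes tested, and the median size of change without sign was 1.07, against 0.40. A gene well counted in only 1 genotype can pass the filter through that genotype, so these figures describe the tested members and not all 130. The comparison with all genes was not matched for abundance, and fold changes of members with few reads have wide errors. Groups that did not overlap were seen for 16 members with all knockout libraries above and 9 with all below, against 22.2% and 25.5% of all genes tested. Calls with a change over 2-fold numbered 16 among the members, 9 higher and 7 lower, against 12.9% of all genes tested.

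**Figure D1:**
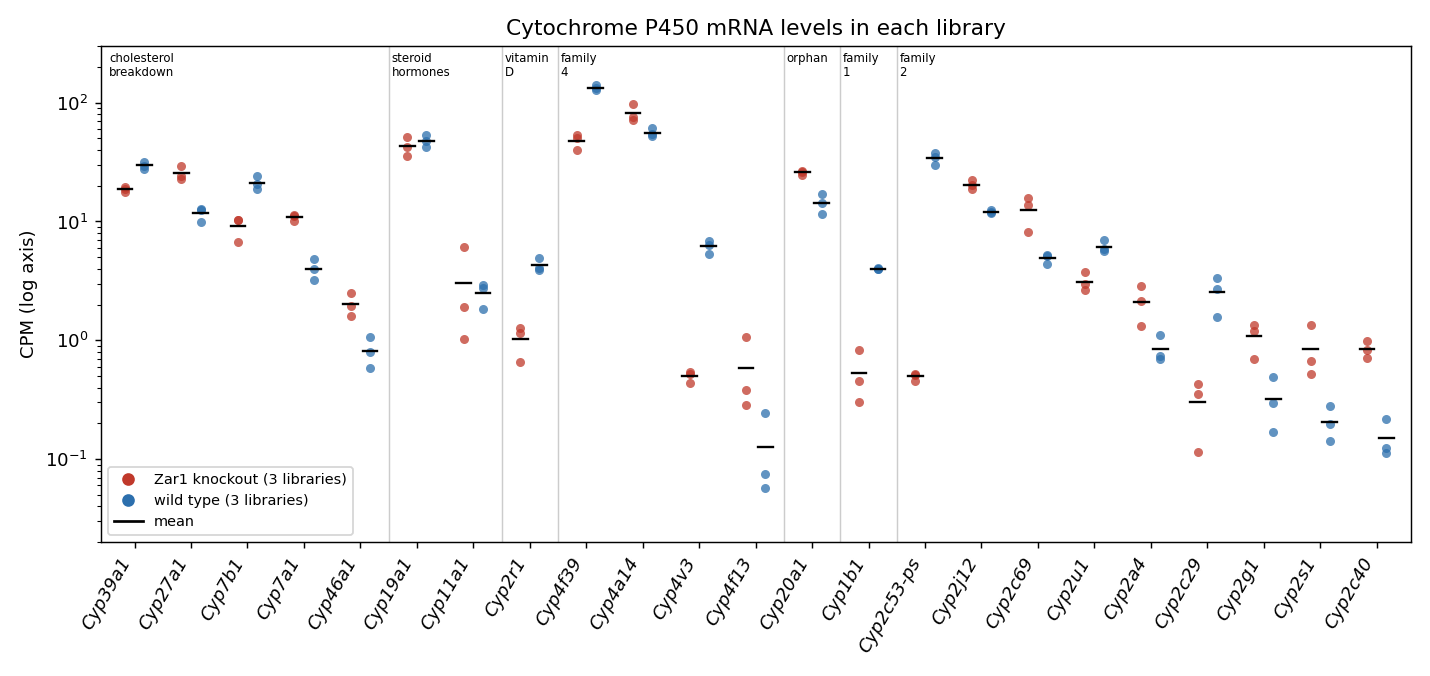
CPM on a log axis (y) in each of the 3 Zar1 knockout libraries (left of each pair) and the 3 wild-type libraries (right of each pair) for the 21 called P450 genes and for Cyp19a1 and Cyp11a1, grouped by role; bars are means. Cyp4f39 stands at 47.97 CPM in knockout and 133.0 CPM in wild-type oocytes, and Cyp2c53-ps at 0.496 CPM in knockout and 34.2 CPM in wild-type oocytes.

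Promoter sequences from RefSeq (build GRCm38.p6, a window that ends shortly after each gene's start) were at hand for 27 tested members, with 30 promoters. They are shown for 3 genes that fell, Cyp4f39, Cyp1b1 and Cyp4v3, and for Cyp27a1, which rose, so that the letters can be set beside the values that follow. Capitals mark GCGTG, or CACGC where it lies on the other strand, the core letters to which the aryl hydrocarbon receptor and its partner bind in Cyp1 genes. Cyp4f39 is at chr17:32452473-32452772 on the plus strand, Cyp1b1 at chr17:79715012-79715311 on the minus strand, Cyp4v3 at chr8:45333114-45333413 on the minus strand and Cyp27a1 at chr1:74713285-74713584 on the plus strand.
Cyp4f39: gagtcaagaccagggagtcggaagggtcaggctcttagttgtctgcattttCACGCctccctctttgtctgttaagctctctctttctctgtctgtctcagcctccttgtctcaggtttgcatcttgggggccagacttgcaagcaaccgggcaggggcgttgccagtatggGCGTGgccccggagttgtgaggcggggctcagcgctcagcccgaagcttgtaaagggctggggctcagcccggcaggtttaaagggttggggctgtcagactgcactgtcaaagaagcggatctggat
Cyp1b1: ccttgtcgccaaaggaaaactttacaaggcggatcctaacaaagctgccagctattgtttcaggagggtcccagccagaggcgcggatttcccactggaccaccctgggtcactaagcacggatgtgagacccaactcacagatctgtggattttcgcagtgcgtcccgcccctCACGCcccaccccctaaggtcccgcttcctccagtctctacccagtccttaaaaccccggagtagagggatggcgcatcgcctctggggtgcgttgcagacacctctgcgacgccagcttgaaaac
Cyp4v3: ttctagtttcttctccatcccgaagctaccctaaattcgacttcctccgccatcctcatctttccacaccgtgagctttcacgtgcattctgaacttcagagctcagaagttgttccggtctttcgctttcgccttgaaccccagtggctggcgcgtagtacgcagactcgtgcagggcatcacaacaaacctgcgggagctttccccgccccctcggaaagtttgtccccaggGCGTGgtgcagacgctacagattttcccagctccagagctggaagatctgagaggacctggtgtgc
Cyp27a1: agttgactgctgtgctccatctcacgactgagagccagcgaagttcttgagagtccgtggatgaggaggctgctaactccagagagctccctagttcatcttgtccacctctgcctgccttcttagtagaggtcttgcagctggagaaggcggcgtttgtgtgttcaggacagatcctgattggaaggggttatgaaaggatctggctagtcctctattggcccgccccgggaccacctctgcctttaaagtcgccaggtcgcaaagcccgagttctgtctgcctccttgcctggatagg
The letters stood at 2 places in the Cyp4f39 window, at 1 place each in those of Cyp1b1 and Cyp4v3 and at none in that of Cyp27a1. Of all 32851 promoters in the table, 32.4% held GCGTG on either strand. Among members it stood in 3 of 9 promoters of genes that rose, in 4 of 5 promoters of genes that fell and in 2 of 16 promoters of genes that were not called. The 5 were Cyp1b1, Cyp2c29, Cyp2r1, Cyp4f39 and Cyp4v3, of which Cyp2c29 lacked the letters. Cyp2c53-ps, Cyp7b1, Cyp39a1 and Cyp2u1 also fell but had no promoter at hand. The 3 genes that rose and held the letters, not shown above, were Cyp20a1, Cyp2j12 and Cyp46a1. The median number of CG pairs per promoter was 6 for members that rose, 16 for those that fell and 2 for those not called, against 7 over all promoters. GCGTG was 1 of 7 motifs searched on both strands, overlaps allowed. Of the others, the GC box GGGCGG stood in 5 of 9 promoters of genes that rose, 2 of 5 of those that fell and 1 of 16 of those not called (35.7% of all promoters). In the same order, the counts were 4, 1 and 5 for the CCAAT box, CCAAT (37.4% of all), and 1, 1 and 9 for the nuclear receptor half-site, AGGTCA (16.3% of all). They were 7, 2 and 14 for the E-box, CANNTG (72.3% of all), and 0, 0 and 2 for the NOBOX core, TAATTG (8.0% of all), and TATAAA is given with the Cyp2c genes. Promoters were counted and not genes, so a gene can count more than once, as Cyp19a1 does for both NOBOX matches. A match is a description of the letters and does not show binding.

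The 5 named enzymes grouped here under cholesterol breakdown were all called, against 58.3% of tested P450 members and 33.4% of all genes tested. They did not all change in the same direction. Cyp7a1, Cyp27a1 and Cyp46a1, which hydroxylate cholesterol itself, rose, whereas Cyp7b1 and Cyp39a1, which act on hydroxylated cholesterol, fell. A link between role and direction was not tested in these 5 genes. Cyp11a1, the side-chain cleavage enzyme, and Cyp2c70, which makes muricholic acid, were placed in other groups below and were not called. Cyp7a1, the rate-limiting enzyme of bile acid synthesis in liver, had 390, 378 and 416 counts in knockout libraries and 161, 113 and 156 counts in wild-type libraries. All knockout libraries were well above the highest wild-type library, and the log2 fold change was 1.44 ± 0.19 (SE, adjusted p = 0.000656 by edgeR). Cyp27a1, a mitochondrial enzyme that hydroxylates the side chain of cholesterol and of bile acid precursors, had 1024, 849 and 882 counts in knockout libraries and 506, 348 and 415 counts in wild-type libraries. The groups did not overlap, and Cyp27a1 stood at 25.4 ± 3.45 CPM in knockout and 11.7 ± 1.62 CPM in wild-type oocytes (SD, n = 3 each), a log2 fold change of 1.11 ± 0.16 (SE, adjusted p = 0.000866 by edgeR). Cyp46a1, best known as the cholesterol hydroxylase of neurons, had 87, 72 and 59 counts in knockout libraries and 43, 28 and 19 counts in wild-type libraries. It was higher in every knockout library by a log2 fold change of 1.29 ± 0.35 (SE, adjusted p = 0.0198 by edgeR). The counts of Cyp46a1 were low, and its call was lost without knockout replicate 1, wild-type replicate 2 or wild-type replicate 3, with adjusted p = 0.0648, 0.0648 and 0.0757 by edgeR.

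Cyp7b1, the oxysterol hydroxylase, had 362, 381 and 246 counts in knockout libraries and 968, 726 and 607 counts in wild-type libraries. Every knockout library lay below every wild-type library, at 9.11 ± 2.06 CPM in knockout and 21.1 ± 2.71 CPM in wild-type oocytes (SD, n = 3 each) and a log2 fold change of -1.21 ± 0.19 (SE, adjusted p = 0.00166 by edgeR). Cyp39a1, which hydroxylates the product of Cyp46a1, had 685, 656 and 685 counts in knockout libraries and 1181, 983 and 1034 counts in wild-type libraries. The knockout libraries were close to one another and all below wild type, with a log2 fold change of -0.67 ± 0.11 (SE, adjusted p = 0.00207 by edgeR). The remaining gene of the group, Cyp8b1, which sets the balance of bile acids in liver, had no read in any library. Summed over the 6 genes, the group had 7172 counts in knockout and 7288 counts in wild-type libraries.

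Neither named enzyme of steroid hormone synthesis was called. Cyp19a1, aromatase, which turns androgens into estrogens, had 1472, 1899 and 1300 counts in knockout libraries and 1708, 1661 and 1746 counts in wild-type libraries. The knockout libraries were more spread out and overlapped wild type, and the log2 fold change of -0.16 ± 0.14 did not pass (SE, adjusted p = 0.447 by edgeR). Cyp11a1, the mitochondrial side-chain cleavage enzyme that makes pregnenolone, had 67, 38 and 224 counts in knockout libraries and 118, 98 and 59 counts in wild-type libraries. Knockout replicate 3 alone stood above wild type and the other knockout libraries overlapped or lay below it. The log2 fold change was 0.27 ± 0.57 (SE, adjusted p = 0.758 by edgeR) and became -0.78 without that library (adjusted p = 0.158 by edgeR). The same library was the highest of the knockout libraries for 9 of the 14 granulosa markers, Hsd3b1, Hsd17b1 and Inhbb among them, while knockout replicate 2 was the highest for 4, Has2 and Fshr included, and knockout replicate 1 for Nr5a2. Their part in the Cyp11a1 value was not tested. Gm17322, itself not called, overlaps 145 exonic bases of Cyp11a1 on the same strand, with 921 counts in knockout and 768 in wild-type libraries. Cyp17a1, which makes androgens, had a single read in wild-type replicate 2 and none elsewhere, and Cyp21a1 and Cyp11b2, of adrenal steroid synthesis, had none.

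Of the vitamin D genes, only Cyp2r1 was called, and it fell. Cyp2r1, the main hydroxylase that makes 25-hydroxyvitamin D, had 44, 43 and 24 counts in knockout libraries and 157, 143 and 159 counts in wild-type libraries. No knockout library came near wild type, and the log2 fold change was -2.06 ± 0.30 (SE, adjusted p = 0.00111 by edgeR). Cyp24a1, which breaks active vitamin D down, had 13, 27 and 10 counts in knockout libraries and 9, 11 and 28 counts in wild-type libraries, with no call at an adjusted p of 0.993 by edgeR, and the abundant gene Pfdn4 overlaps 83 of its exonic bases on the opposite strand. Cyp27b1, which makes the active hormone, was below 60 reads, with 20 counts in knockout and 16 in wild-type libraries. The 3 Cyp26 enzymes, which break down retinoic acid, were all below 60 reads, with 39 counts together in knockout and 4 in wild-type libraries. Most of these were Cyp26c1, with 3, 2 and 21 counts in knockout libraries and 1 count in each wild-type library. Its ratio was 8.38 over the summed counts, with an exact 95% interval of 2.57 to 43.3 that covers counting error only, and 1 knockout library held most of its reads. It was called higher where no filter on low counts was used (adjusted p = 0.0450 by edgeR). Cyp26a1 had 3, 5 and 4 counts in knockout libraries and 0, 1 and 0 counts in wild-type libraries.

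Family 4, which hydroxylates the far end of fatty acids, held both the called gene most abundant per length that fell, Cyp4f39, and the one that rose, Cyp4a14. Cyp4f39, the mouse counterpart of human CYP4F22, which hydroxylates the very long fatty acids of skin ceramides, had 1775, 1476 and 1955 counts in knockout libraries and 5640, 4486 and 4274 counts in wild-type libraries. The highest knockout library was far below the lowest wild-type library. The level was 47.97 ± 7.37 CPM in knockout and 133.0 ± 6.52 CPM in wild-type oocytes (SD, n = 3 each), a log2 fold change of -1.47 ± 0.12 (SE, adjusted p = 5.3e-05 by edgeR). Cyp4a14, a fatty acid hydroxylase that PPAR alpha induces in liver, had 2507, 2838 and 3554 counts in knockout libraries and 2188, 2137 and 1703 counts in wild-type libraries. All knockout libraries were above all wild-type libraries by a small margin, with a log2 fold change of 0.55 ± 0.12 (SE, adjusted p = 0.00938 by edgeR). Cyp4v3, the mouse counterpart of human CYP4V2, mutated in a crystalline disease of the retina, had 18, 20 and 16 counts in knockout libraries and 276, 225 and 173 counts in wild-type libraries. The knockout libraries held few reads and did not approach wild type, and the log2 fold change was -3.63 ± 0.25 (SE, adjusted p = 3.16e-05 by edgeR). Gm45753, with no read in any library, overlaps 313 exonic bases of Cyp4v3 on the same strand.

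Of the other members of family 4, Cyp4f13 had 10, 40 and 14 counts in knockout libraries and 3, 2 and 8 counts in wild-type libraries. Knockout replicate 2 was well above the rest, and the log2 fold change of 2.21 ± 0.73 passed narrowly (SE, adjusted p = 0.0448 by edgeR). Without that library it was 1.43 (adjusted p = 0.187 by edgeR). Cyp4a10, a close relative of Cyp4a14 with which it shares a fatty acid role, had 28, 55 and 23 counts in knockout libraries and 24, 9 and 14 counts in wild-type libraries. Its log2 fold change of 1.17 ± 0.48 did not pass (SE, adjusted p = 0.0965 by edgeR), and 29.8% of its 50-base stretches also occur in other genes. Below 60 reads, Cyp4f17 had no read in any knockout library, which allows up to 0.0272 CPM over the group, and 6, 11 and 6 counts in wild-type libraries. It was called lower where no filter on low counts was used (adjusted p = 0.00212 by edgeR), as was Cyp4a12b, with no read in knockout libraries and 7, 0 and 6 counts in wild-type libraries (adjusted p = 0.0344 by edgeR).

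Cyp20a1, an orphan P450 with no settled substrate, had 914, 925 and 976 counts in knockout libraries and 464, 507 and 548 counts in wild-type libraries. The knockout libraries were close together and all above wild type, with a log2 fold change of 0.86 ± 0.15 (SE, adjusted p = 0.00287 by edgeR). In family 1, the enzymes induced by the aryl hydrocarbon receptor, Cyp1b1 fell. It had 29, 17 and 11 counts in knockout libraries and 159, 141 and 132 counts in wild-type libraries. All knockout libraries were far below wild type, with a log2 fold change of -2.92 ± 0.37 (SE, adjusted p = 0.000523 by edgeR). Cyp1a2, a liver enzyme of caffeine and arylamine metabolism, had 19, 13 and 20 counts in knockout libraries and 21, 14 and 17 counts in wild-type libraries. No difference was seen at this depth (adjusted p = 0.995 by edgeR). The receptor itself, Ahr, stood at 70.9 ± 11.7 CPM in knockout and 82.5 ± 1.36 CPM in wild-type oocytes and was not called (SD, n = 3 each; adjusted p = 0.190 by edgeR). Its partner Arnt was at 23.3 ± 2.30 CPM in knockout and 21.9 ± 0.894 CPM in wild-type oocytes (SD, n = 3 each; adjusted p = 0.608 by edgeR). A related partner, Arnt2, had 5, 6 and 4 counts in knockout libraries and 12, 31 and 17 counts in wild-type libraries and fell, with a log2 fold change of -2.01 ± 0.55 (SE, adjusted p = 0.0210 by edgeR).

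**Figure D2:**
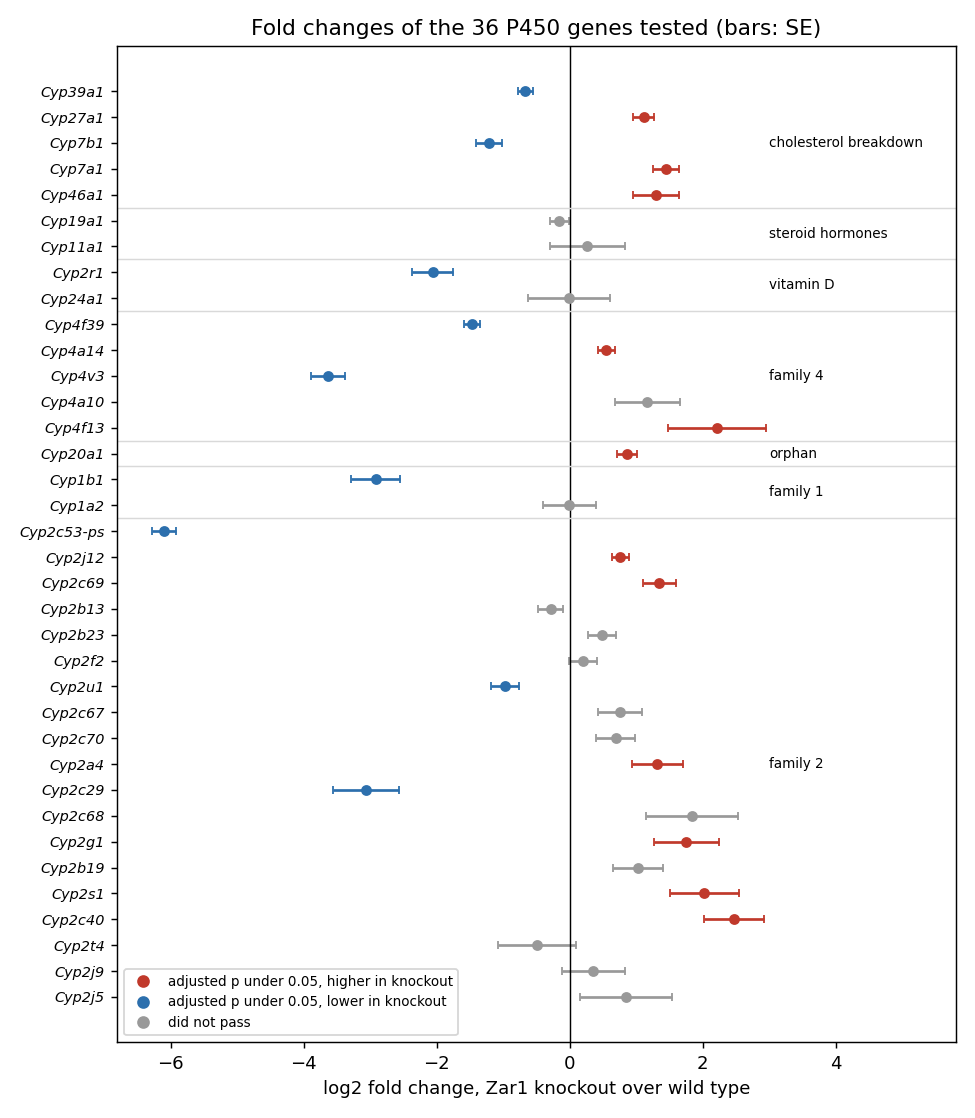
Log2 fold change of Zar1 knockout over wild type (x) for the 36 P450 genes tested, ordered by role, with bars of 1 standard error; red marks a call higher in knockout, blue lower and grey no call. Cyp7a1, Cyp27a1 and Cyp46a1 lie right of 0 while Cyp7b1 and Cyp39a1 lie left of it, and Cyp2c53-ps lies farthest left at -6.10.

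Family 2, the largest and the most concerned with drugs, fatty acids and foreign compounds, had 19 tested members outside the roles above, of which 6 were called higher and 3 lower. For all genes tested the shares were 14.9% higher and 18.5% lower. The Cyp2c genes lie in a cluster of 16 members on chromosome 19, of which 7 had 60 or more reads. In that cluster the 2 neighbours Cyp2c53-ps and Cyp2c29 fell, and Cyp2c40 and Cyp2c69, also neighbours, rose. Cyp2c53-ps, which GENCODE annotates as a transcribed unprocessed pseudogene, had 16, 19 and 19 counts in knockout libraries and 1403, 1058 and 1229 counts in wild-type libraries. Knockout libraries held hardly any reads of it, and its log2 fold change of -6.10 ± 0.18 (SE, adjusted p = 6.98e-07 by edgeR) was the farthest from 0 of the 36 members. Cyp2c29, a fatty acid epoxygenase of mouse liver, had 4, 16 and 13 counts in knockout libraries and 135, 55 and 88 counts in wild-type libraries. All knockout libraries were below wild type, with a log2 fold change of -3.06 ± 0.50 (SE, adjusted p = 0.00196 by edgeR). These 2 genes overlap by 142 exonic bases on the same strand in the GENCODE annotation, and 7.37% and 4.25% of their 50-base stretches occur in other genes, so their counts are not fully separate.

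Cyp2c69, which has no role assigned here, had 476, 587 and 299 counts in knockout libraries and 205, 155 and 171 counts in wild-type libraries. All knockout libraries were above wild type, with a log2 fold change of 1.35 ± 0.24 (SE, adjusted p = 0.00324 by edgeR). Cyp2c40, which oxidizes arachidonic acid, had 25, 37 and 30 counts in knockout libraries and 5, 4 and 7 counts in wild-type libraries. It was higher in every knockout library, with a log2 fold change of 2.47 ± 0.45 (SE, adjusted p = 0.00325 by edgeR). The 2 genes are near-identical copies, with 54.3% of the 50-base stretches of Cyp2c69 and 60.3% of those of Cyp2c40 found in other genes, so reads cannot be split with certainty between them and with Cyp2c67 and Cyp2c68. The sequence near the starts of the 4 genes shows how alike they are. For each of the 4 genes, 60 bases of the promoter are given on the minus strand of chromosome 19 of GRCm38.p6 (RefSeq), with TATAAA, the TATA box letters, in capitals.
Cyp2c69 (chr19:39886750-39886809): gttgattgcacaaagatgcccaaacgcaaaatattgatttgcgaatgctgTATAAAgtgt
Cyp2c40 (chr19:39812765-39812824): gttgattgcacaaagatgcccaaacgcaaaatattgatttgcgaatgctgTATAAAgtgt
Cyp2c67 (chr19:39649073-39649132): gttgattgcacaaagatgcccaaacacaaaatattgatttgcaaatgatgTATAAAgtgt
Cyp2c68 (chr19:39741084-39741143): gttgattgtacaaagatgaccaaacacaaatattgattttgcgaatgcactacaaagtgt
Cyp2c69 and Cyp2c40 are identical over the window. Counted position by position without gaps, Cyp2c67 differs from Cyp2c69 at 3 of 60 positions. Cyp2c68 differs at 12, and TATAAA is absent from its window. A shifted stretch of bases counts as several differences in this way. Over all promoters, 13.6% held TATAAA, against 3 of 9 promoters of P450 genes that rose, 1 of 5 of those that fell and 6 of 16 of those not called.

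The other Cyp2c genes were not called. Cyp2c67 had 65, 125 and 105 counts in knockout libraries and 54, 76 and 42 counts in wild-type libraries, with a log2 fold change of 0.76 ± 0.33. Cyp2c68 had 63, 108 and 45 counts in knockout libraries and 9, 44 and 6 counts in wild-type libraries, and wild-type replicate 2 alone was in the knockout range. Its log2 fold change was 1.84 ± 0.69 (SE, adjusted p = 0.0702 by edgeR) and it was 3.24 without wild-type replicate 2 (adjusted p = 0.00548 by edgeR). Cyp2c70, which makes muricholic acid in mouse liver, had 65, 90 and 67 counts in knockout libraries and 42, 48 and 45 counts in wild-type libraries. Its groups did not overlap, with a log2 fold change of 0.69 ± 0.29 (SE, adjusted p = 0.101 by edgeR).

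**Figure D3:**
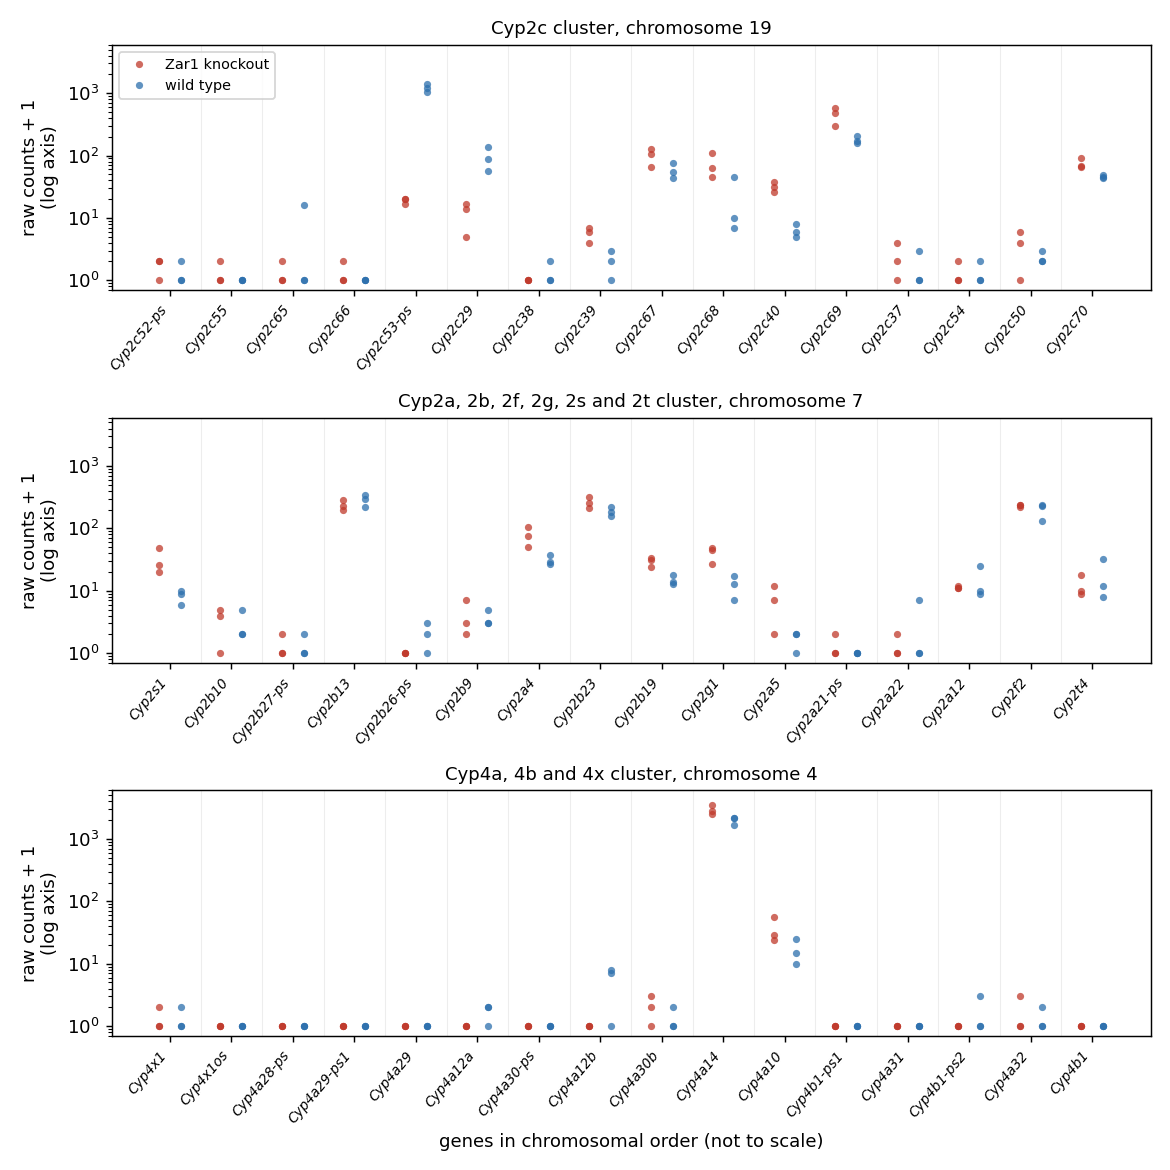
Raw counts plus 1 on a log axis (y) of the P450 genes of 3 chromosomal clusters in gene order (x, not to scale), with the 3 Zar1 knockout libraries in red left of the 3 wild-type libraries in blue. In the Cyp2c cluster Cyp2c53-ps and Cyp2c29 are low in knockout libraries while Cyp2c40 and Cyp2c69 are high, and in the Cyp4a, 4b and 4x cluster 8 of 16 genes are at 0 in every library.

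On chromosome 7, a cluster of 16 members held 9 with 60 or more reads. Of the 8 tested, 3 were called higher, none lower and 5 were not called, beside 14.9% higher and 18.5% lower over all genes tested. Cyp2a4, a steroid hydroxylase of mouse liver, had 75, 49 and 105 counts in knockout libraries and 28, 26 and 36 counts in wild-type libraries, and its log2 fold change was 1.32 ± 0.38 (SE, adjusted p = 0.0273 by edgeR). Of its 50-base stretches 38.8% also occur in other genes, Cyp2a5 foremost. Cyp2g1, best known from the olfactory mucosa, had 47, 26 and 44 counts in knockout libraries and 12, 6 and 16 counts in wild-type libraries, a log2 fold change of 1.75 ± 0.49 (SE, adjusted p = 0.0230 by edgeR). Cyp2s1, an enzyme of epithelia outside the liver, had 47, 25 and 19 counts in knockout libraries and 8, 5 and 9 counts in wild-type libraries, a log2 fold change of 2.02 ± 0.52 (SE, adjusted p = 0.0164 by edgeR). In all 3 genes the groups did not overlap, but the calls were lost when single libraries were left out, with adjusted p up to 0.0949, 0.0810 and 0.0701 by edgeR. Gm26707 and Gm42375 overlap Cyp2s1 and Cyp2a4 on the opposite strand by 260 and 61 exonic bases, and with no stated strand setting reads from these bases cannot be assigned. Gm26707 had 13 counts in knockout and 2 in wild-type libraries, and Gm42375 had 25 in knockout and 5 in wild-type libraries.

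The 5 tested genes of that cluster without a call were Cyp2b13, Cyp2b23, Cyp2f2, Cyp2b19 and Cyp2t4. Cyp2b13, a liver P450 of the Cyp2b group, had 228, 282 and 199 counts in knockout libraries and 344, 301 and 220 counts in wild-type libraries (adjusted p = 0.278 by edgeR). Cyp2b23 had 314, 210 and 254 counts in knockout libraries and 217, 181 and 158 counts in wild-type libraries (adjusted p = 0.106 by edgeR). Cyp2f2, which activates naphthalene in the mouse lung, had 233, 239 and 219 counts in knockout libraries and 229, 241 and 133 counts in wild-type libraries (adjusted p = 0.522 by edgeR). The groups of Cyp2b13 and Cyp2f2 overlapped, and those of Cyp2b23 did not in CPM. Cyp2b19, an arachidonic acid epoxygenase of skin, had 30, 23 and 33 counts in knockout libraries and 17, 12 and 13 counts in wild-type libraries (adjusted p = 0.0677 by edgeR). Cyp2t4 had 8, 9 and 17 counts in knockout libraries and 31, 7 and 11 counts in wild-type libraries (adjusted p = 0.562 by edgeR). Gm15883 overlaps Cyp2f2 by 274 exonic bases and Egln2 overlaps Cyp2t4 by 11 on the opposite strand. Gm15883 was called higher, with 133 counts in knockout and 25 in wild-type libraries, as was Egln2, with 661 and 391. Cyp2a12, of the same cluster, was not tested, with 11, 10 and 10 counts in knockout libraries and 9, 24 and 8 counts in wild-type libraries.

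Outside these clusters, Cyp2j12, of a group that oxidizes arachidonic acid, had 703, 836 and 683 counts in knockout libraries and 483, 415 and 403 counts in wild-type libraries. The groups were well apart, at 20.4 ± 1.89 CPM in knockout and 12.1 ± 0.327 CPM in wild-type oocytes (SD, n = 3 each), a log2 fold change of 0.76 ± 0.13 (SE, adjusted p = 0.00219 by edgeR). Its relatives Cyp2j9 and Cyp2j5 were not called, with 41 and 41 counts in knockout and 32 and 23 counts in wild-type libraries. Cyp2j14-ps, with 42 counts in knockout and 19 in wild-type libraries, was not tested. Cyp2u1, a hydroxylase of long fatty acids, had 130, 99 and 109 counts in knockout libraries and 228, 244 and 189 counts in wild-type libraries. It was lower in every knockout library, with a log2 fold change of -0.98 ± 0.21 (SE, adjusted p = 0.00779 by edgeR), with 548 of its exonic bases also covered by 4930534D22Rik on the opposite strand, which had 1 count in knockout and 3 in wild-type libraries.

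Levels can be compared between genes only per length, here as CPM per kilobase of exon. In knockout oocytes the most abundant were Cyp4a14 at 31.4 ± 5.23, Cyp4f39 at 16.8 ± 2.58 and Cyp27a1 at 11.7 ± 1.59 CPM per kilobase. In wild-type oocytes they were Cyp4f39 at 46.6 ± 2.28, Cyp4a14 at 21.5 ± 1.64 and Cyp2c53-ps at 19.2 ± 2.22 CPM per kilobase (SD, n = 3 each). In knockout oocytes Cyp27a1, Cyp20a1 at 11.3 ± 0.425, Cyp2j12 at 10.5 ± 0.971 and Cyp19a1 at 9.48 ± 1.71 CPM per kilobase were neighbours that did not differ beyond their spread. In wild-type oocytes Cyp19a1 at 10.6 ± 1.26, Cyp7b1 at 9.75 ± 1.25 and Cyp39a1 at 9.73 ± 0.659 CPM per kilobase formed such a group. Where the members that fell stood in wild type, they ranged from 0.686 CPM per kilobase for Cyp1b1 to 46.6 for Cyp4f39.

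The 92 members below 60 reads included whole groups and genes that lie beside expressed ones. None of the 11 genes of family 3, the drug-metabolizing enzymes of liver and gut, reached 60 reads. Cyp3a44 held most of their reads, with 2, 0 and 0 counts in knockout libraries and 17, 12 and 2 counts in wild-type libraries. Its ratio over summed counts was 0.0624, with an exact 95% interval of 0.00723 to 0.245 for counting error only, and it was called lower where no filter on low counts was used (adjusted p = 0.00982 by edgeR). Of the 18 genes of the Cyp2d cluster on chromosome 15, 15 had no read in any library and none reached 60, but 10 of the 18 carry a pseudogene symbol. Near-identical copies can be at 0 because reads with several alignments were not counted: 98.6% and 93.5% of the 50-base stretches of Cyp3a41a and Cyp3a41b occur in other genes. For Cyp2d11 and Cyp2d10 these shares were 37.2% and 35.8%, so most of their stretches were found in no other gene. The part of such reads in the counts of 0 was not tested. Members below 60 reads also made up 14 of 16 in the Cyp4a, 4b and 4x cluster, 9 of 13 in the Cyp2j cluster, 9 of 16 in the Cyp2c cluster, 7 of 16 in the chromosome 7 cluster and 7 of 9 in the Cyp4f cluster. Among the members nearest to the limit, Cyp2a12, Cyp2j5 and Cyp2j14-ps were inside it with 72, 64 and 61 reads, and Cyp2c23, Cyp2ab1 and Cyp27b1 were outside it with 53, 51 and 36. The 38 members at or above the limit held 99.4% of all P450 reads.

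Of 80 genes that serve the P450 enzymes or regulate them, 59 were tested, of which 11 were called higher and 11 lower. That is 37.3% called, against 33.4% of all genes tested. The electron donors had 3 of 13 called higher and 2 lower, with a median log2 fold change of 0.14. Fdx1, the ferredoxin of the mitochondrial enzymes, had 1721, 1748 and 1789 counts in knockout libraries and 1433, 1306 and 1227 counts in wild-type libraries, a log2 fold change of 0.39 ± 0.08 (SE, adjusted p = 0.00716 by edgeR). Cyb5r2, a cytochrome b5 reductase, had 547, 495 and 520 counts in knockout libraries and 885, 867 and 759 counts in wild-type libraries, a log2 fold change of -0.70 ± 0.12 (SE, adjusted p = 0.00285 by edgeR). The 2 heme-binding partners Pgrmc2 and Pgrmc1 went opposite ways, with log2 fold changes of 0.37 ± 0.09 and -0.38 ± 0.10 (SE, adjusted p = 0.0105 and 0.0156 by edgeR). Por, the P450 oxidoreductase, was at 27.7 ± 3.21 CPM in knockout and 31.3 ± 2.57 CPM in wild-type oocytes and was not called (SD, n = 3 each; adjusted p = 0.309 by edgeR).

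In heme synthesis and breakdown 4 of 11 genes were called higher, none lower, with a median log2 fold change of 0.36. Shares over all genes tested were 33.4% called, 14.9% higher and 18.5% lower. Fech, which inserts the iron, was at 48.6 ± 0.948 CPM in knockout and 33.9 ± 3.08 CPM in wild-type oocytes (SD, n = 3 each; adjusted p = 0.00370 by edgeR). Hmox2, a heme oxygenase, had 701, 851 and 909 counts in knockout libraries and 613, 452 and 356 counts in wild-type libraries (log2 fold change 0.80 ± 0.16, SE, adjusted p = 0.00481 by edgeR). Uros and Urod, of the middle steps, were also higher, with log2 fold changes of 0.44 and 0.39. Alas1, the rate-limiting first enzyme, was at 58.6 ± 10.6 CPM in knockout and 56.7 ± 1.09 CPM in wild-type oocytes and was not called (SD, n = 3 each; adjusted p = 0.809 by edgeR). Of 12 steroid enzymes outside the P450 family tested, none was called higher and 3 lower. These were Hsd17b7, Hsd17b12 and Srd5a3, with log2 fold changes of -0.87, -0.38 and -0.59 (adjusted p = 0.00208, 0.0182 and 0.0382 by edgeR).

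Of 10 tested genes of the retinoid pathway, 1 was called higher and 2 lower, beside 14.9% and 18.5% of all genes tested. Dhrs3, which reduces retinaldehyde to retinol, had 801, 1275 and 1047 counts in knockout libraries and 305, 204 and 197 counts in wild-type libraries. All knockout libraries were far above wild type, with a log2 fold change of 2.14 ± 0.18 (SE, adjusted p = 7.47e-05 by edgeR). Rdh10, which works the other way and makes retinaldehyde, was at 87.1 ± 8.11 CPM in knockout and 134 ± 6.61 CPM in wild-type oocytes (SD, n = 3 each), a log2 fold change of -0.62 ± 0.09 (SE, adjusted p = 0.0010 by edgeR). Crabp2, a retinoic acid carrier, had a log2 fold change of -0.56 ± 0.14 (SE, adjusted p = 0.0154 by edgeR). Among 13 tested sensors that induce P450 genes, 3 were called higher and 4 lower. Nr5a2, a regulator of bile acid and steroid genes, rose with a log2 fold change of 0.59 ± 0.09 (SE, adjusted p = 0.00144 by edgeR) and is also on the granulosa list above. Nr1h4, the bile acid receptor, had 33, 16 and 14 counts in knockout libraries and 1, 0 and 0 counts in wild-type libraries. The ratio of summed counts was 60.9, with an exact 95% interval of 10.5 to 2444 for counting error only. Pparg fell with a log2 fold change of -0.44 ± 0.10 and Nr1h2 rose with one of 0.53 ± 0.14 (SE, adjusted p = 0.00747 and 0.0196 by edgeR). The other sensors that fell were Arnt2, given above, Ppara, which encodes PPAR alpha, and Nr1i2, the pregnane X receptor. Ppara had 162, 135 and 117 counts in knockout libraries and 270, 234 and 186 counts in wild-type libraries, a log2 fold change of -0.74 ± 0.21 (SE, adjusted p = 0.0242 by edgeR). Nr1i2 had 90, 59 and 122 counts in knockout libraries and 208, 200 and 152 counts in wild-type libraries, a log2 fold change of -1.05 ± 0.29 (SE, adjusted p = 0.0208 by edgeR).

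**Figure D4:**
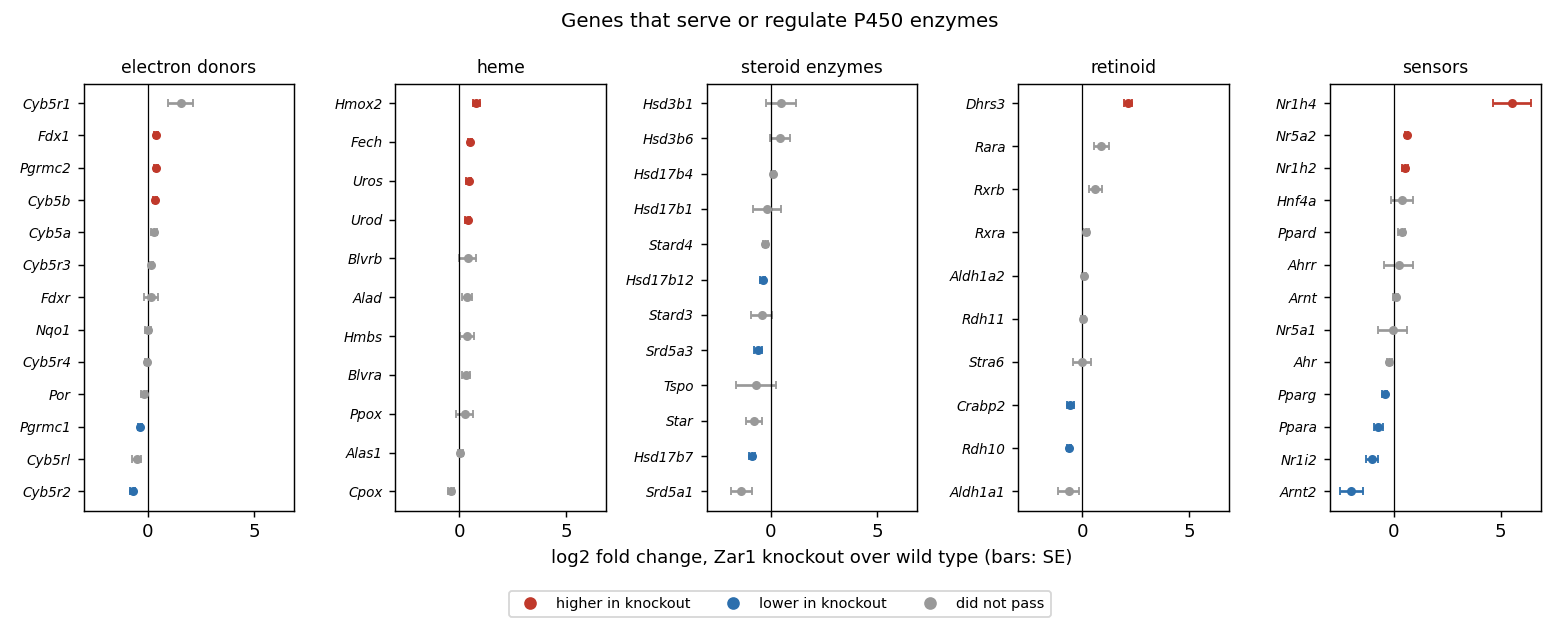
Log2 fold change of Zar1 knockout over wild type (x), with bars of 1 standard error, for the tested genes of 5 lists: electron donors, heme, steroid enzymes outside the P450 family, retinoid genes and sensors. Red marks a call higher in knockout, blue lower and grey no call; the value of Nr1h4, which had 1 read in wild type, depends on the fit's prior count.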

How the data were processed

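The files hold raw read counts for each gene as deposited by the authors, a table for each of 6 libraries, unscaled. The submitters' processing notes name HTSeq 0.13.5, STAR 2.7.8a, cutadapt 2.8, bcl2fastq 2.20.0.422 and build mm39. No source used here gives the annotation release, the strand setting or read filters. HTSeq kept multiply aligned reads out of the gene rows (between 13.9 and 15.0% of reads in knockout and between 14.4 and 14.9% in wild-type libraries), which lowers counts of near-identical copies. The files name genes by Ensembl identifiers, which were matched to symbols; 1607 of the gene rows had no symbol in the name table and held at most 0.256% of a library's counts.

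Counts were tested in R 4.3.3 with edgeR 4.0.16 (TMM factors, filterByExpr at a minimum of 10 counts, quasi-likelihood test, Benjamini-Hochberg adjustment over all tested genes, two-sided). CPM used TMM-scaled library sizes. Exon lengths, gene order and shared 50-base stretches came from GENCODE M21, whose build differs from that of the files, so none of its coordinates are given; clusters joined members within 1000000 bases. Promoters came from RefSeq, GRCm38.p6. Standard errors were taken from the F statistic. The fit was checked on simulated data, where it recovered 9.9% of 1.5-fold, 63.5% of 2-fold and 96.7% of 4-fold changes. Smaller changes were thus often missed there. Alternatives included DESeq2 1.42.0 and limma 3.58.1. Members, lists and tests were chosen with earlier results of these data known. Named genes were all members with 60 or more reads, those nearest that limit, and up to 4 called genes of each partner list by smallest p, or the 2 with the smallest p where fewer were called; other genes below 60 reads, Por, Alas1, Ahr, Arnt, Arnt2, Ppara, Nr1i2 and the marker genes were named after their values were seen. Intervals and limits of a count of 0 (3 counts over a group) cover counting error only.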

Additional observations from a re-analysis of the deposited data

How the results depend on the processing

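Of the 21 called members, 16 kept their call at an adjusted p of 0.05 under all alternatives run in which they were tested (other scalings, filters and tools, the replicate block, GC and length offsets, and each library left out), including all 9 that fell. The 5 that lost it in at least 1 were Cyp46a1, Cyp4f13, Cyp2s1, Cyp2g1 and Cyp2a4; Cyp2c68 and Cyp2b23 gained one in some. Cyp4f13 had adjusted p between 0.0510 and 0.187 where lost (edgeR, DESeq2 and limma). Members called higher and lower numbered 14 and 12 with no filter on low counts, 8 and 9 among the 25 members with 1 CPM in 3 libraries, and 11 and 9 with GC and length offsets. At an adjusted p of 0.01 the members called higher were 7, all genes higher were 1171 and lower 1861, and partner genes higher were 6 and lower 4. With each library left out, members called higher ranged from 8 to 12 and lower from 9 to 10, all genes higher from 1541 to 2509 and lower from 2285 to 3125, and partner genes higher from 8 to 14 and lower from 5 to 10. Fewer partner genes fell without knockout replicate 2 (7) or wild-type replicate 1 (7), 2 (5) or 3 (7); the cause was not tested, nor for all genes without wild-type replicate 3 (1541 higher).

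Some uncalled members changed sign. Cyp1a2 had log2 fold changes of 0.012 with RLE factors, 0.045 with upper-quartile factors and 0.012 with DESeq2, and -0.13 to 0.19 with a library left out. Cyp11a1 had -0.12 with limma-voom, -0.11 with the replicate block and -0.78 to 0.69 with a library left out. Cyp24a1 had 0.0029 with RLE factors, 0.034 with upper-quartile factors, 0.14 with limma-voom, 0.10 with the replicate block, 0.042 with GC and length offsets and -0.50 to 0.76 with a library left out. Cyp2t4 ranged from -0.90 to 0.21 with a library left out.

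With the replicate number as a block, 12 members were called higher and 9 lower, and 2078 and 2760 of all genes. Deviations of same-numbered libraries correlated at -0.00408, -0.0491 and -0.0397, and no knockout library correlated best with its own number. With 3 libraries per group, these values cannot show whether same-numbered libraries shared animals or a preparation day. Members with under about 20 reads per library have wide errors, and a missed call does not show that levels were equal.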
